A study of Homo sapiens with 28 samples.

Results

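Interferon-stimulated genes are described here across SK-N-MC cells in which EWS-FLI1 or CHD4 was silenced. The set is a list of 37 gene symbols: transcription factors of the interferon pathway, sensors of foreign nucleic acid and antiviral effectors. Each member is the row of the 48 h table of normalised counts that carries its symbol. 36 of the 37 had a row among the 35488 genes of the table, and IRF7 was not analysed here. 28 members, among 21025 genes, reached a mean of at least 10 normalised counts over all 28 libraries and were tested. The other 8 with a row (MX1, MX2, OAS2, OASL, XAF1, PARP9, PARP14 and DTX3L) lay below that minimum and are described from their reads.

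Type I interferons bind a receptor on the cell surface whose Janus kinases phosphorylate STAT proteins. STAT2 then joins IRF9 in a complex that binds interferon-stimulated response elements, short promoter sequences built of GAAA repeats, and switches on the genes that carry them. The products of these genes sense viral RNA and DNA, degrade or sequester viral RNA, block translation and hold back virus release. Many are also held at a constant low or moderate level in cells that have met no virus, and tumour cells differ widely in that level.

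SK-N-MC is an established cell line from Ewing sarcoma, a cancer of bone and soft tissue that is driven by EWS-FLI1, a fusion of the RNA-binding protein EWSR1 with the ETS factor FLI1. CHD4 is the ATPase of the nucleosome remodelling and deacetylase complex. All cells carried a doxycycline-inducible short hairpin RNA and all were grown with 100 ng/ml doxycycline, the controls included, for 24 or 48 h. At each time there were 5 libraries with a scrambled hairpin (shScramble), 3 with a hairpin to FLI1 (shFLI1) and 3 with each of a pair of hairpins to CHD4 (shCHD4#1 and shCHD4#2). The labels call the libraries biological replicates. As a model these groups are limited to 1 cell line, with 1 hairpin for the fusion, and no untreated cells and no interferon-treated cells are among the libraries analysed here. The genotype label of the 48 h shScramble libraries names a knockdown of CHD4, which their titles and their treatment label do not.

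Each library gave 46102707 to 64775442 recovered reads. FLI1 fell with shFLI1 from 4153 ± 408 to 1856 ± 148 normalised counts (mean and SD) at 24 h, and CHD4 fell with its hairpins from 11550 ± 1236 to 2990 ± 240 and 3075 ± 351. At 48 h the shScramble libraries held 11605 counts of CHD4 on average, near the 24 h shScramble level. The replicates numbered 1 and 2 with shScramble, shCHD4#1 and shCHD4#2 (12 libraries, called the first kind here) held 0.313 to 0.388% of reads in processed pseudogenes, against 0.223 to 0.283% in the other 16 (the second kind), which include all shFLI1 libraries. A 48 h library, shFLI1 replicate 3, stands apart: 479 genes were at least 5 times as high in it as in every other library, among them GPNMB at 13669 and SPP1 at 3453, which elsewhere reached 392 and 9.73. In any other library at most 2 genes met that condition. Mitochondrial ribosomal RNA took 22.1 to 22.5% of reads with shFLI1 at 48 h and 16.2 to 18% with shScramble. The Ewing sarcoma markers NKX2-2, NR0B1, PRKCB, CD99, BCL11B and LOXHD1 were all detected, and their sum fell from 27731 to 34846 in shScramble to 6819 to 7871 with shFLI1 at 48 h.

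The promoters of the members show the element that defines the pathway. RefSeq (GRCh38.p14) gave a promoter window for 29 of the 37 members, and the 250 bases before each start were searched on both strands for GAAA, 2 free bases and GAAA. 17 of the 29 members (58.6%) held a match, against 1014 of 27305 genes with a window (3.71%). The sequences below carry matches in capitals. They are from the 9 members in which the whole stretch around the matches overlapped no annotated exon. IFIT3 has a further pair, not shown, in a stretch that overlaps its own exons. A stretch left out can still hold a match outside exons. Each sequence is read on the strand of its gene. A match on the opposite strand appears as TTTC, 2 bases and TTTC.
IFIT1 (chr10:89392498-89392537, plus strand): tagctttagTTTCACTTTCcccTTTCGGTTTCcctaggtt
IFIT3 (chr10:89327841-89327884, plus strand): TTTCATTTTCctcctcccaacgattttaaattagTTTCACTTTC
IFI6 (chr1:27672276-27672348, minus strand): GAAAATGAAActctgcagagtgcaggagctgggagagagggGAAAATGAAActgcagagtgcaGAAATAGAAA
IFI27 (chr14:94110619-94110658, plus strand): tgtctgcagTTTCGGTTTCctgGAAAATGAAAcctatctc
IFI44 (chr1:78649749-78649788, plus strand): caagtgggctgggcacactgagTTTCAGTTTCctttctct
IFI44L (chr1:78620284-78620384, plus strand): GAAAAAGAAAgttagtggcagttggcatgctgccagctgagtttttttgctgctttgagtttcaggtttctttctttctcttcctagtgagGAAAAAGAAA
ISG15 (chr1:1013372-1013411, plus strand): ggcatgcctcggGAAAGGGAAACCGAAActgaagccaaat
SAMD9 (chr7:93118091-93118130, minus strand): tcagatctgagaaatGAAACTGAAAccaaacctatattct
RSAD2 (chr2:6877617-6877656, plus strand): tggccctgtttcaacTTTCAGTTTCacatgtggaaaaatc

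IFIT1 and IFIT3 each carried paired matches, IFI6 carried 3, and the matches of ISG15 overlapped, sharing a GAAA. IFI44L held matches near both ends of the stretch printed. SAMD9, an antiviral protein that changed strongly below, carried a single match, as did RSAD2. Of the 19 members with a window that were higher with shFLI1 at 48 h, 11 held a match. 2 of the 4 tested members with a window that passed no test there (OAS3 and IFIH1) also held one, as did ISG20, the member that fell most. A gamma-activated site (TTC, 3 free bases, GAA) was found in 8 of the 29 members (27.6%) and in 2208 of all genes (8.09%). GGAA repeated 3 times in a row, the kind of repeat EWS-FLI1 is known to bind, was in none of the 29 member windows and in 21 of all genes (0.0769%). These are letter matches, and no binding was measured.

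**Figure D1:**
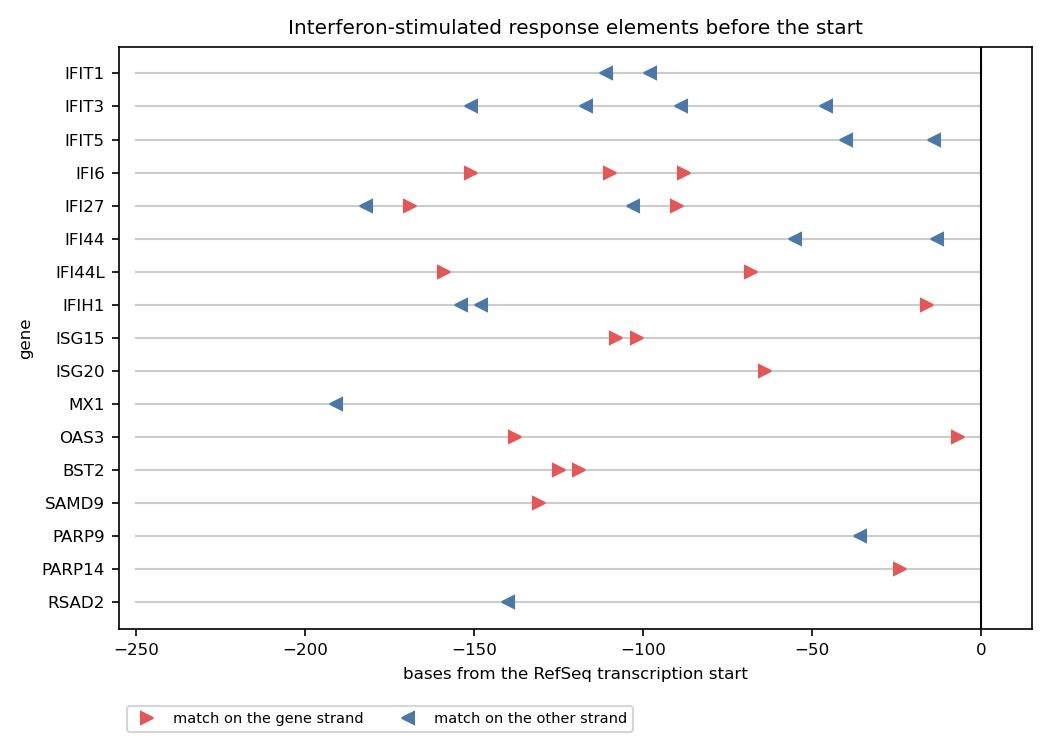
Position of each match to the interferon-stimulated response element (horizontal axis, bases from the RefSeq start at 0) in the 17 members that held one, 1 row a gene; triangles point right for the gene strand and left for the other strand. Genes with several RefSeq starts show the distance to each, so 1 element of IFI27 or IFI44 can appear more than once, and most matches lie within 200 bases of the start.

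In shScramble cells, with no added interferon, the members spanned a wide range of levels. Each was divided by the merged length of all its annotated exons, such as 2038 bases for IFI44 and 10240 for IFI44L. The order below therefore depends partly on the annotation. Per kilobase of exon, and over the 10 shScramble libraries, IFI44 was highest at 1217 to 1897 normalised counts and ISG15, the ubiquitin-like modifier, was next at 904 to 1222, so their ranges just overlapped. EIF2AK2 (the RNA-dependent kinase PKR) followed at 392 to 600, then IFI44L at 248 to 431 and IRF3 at 208 to 379. STAT2 lay at 208 to 287. The IFIT genes other than IFIT3, SAMD9L, TRIM22 and IRF9 had mean levels from 2.44 to 26.7 per kilobase. OASL, XAF1, OAS2, MX1, DTX3L, PARP14 and MX2 were at a mean of 0.5 or less. MX1, a GTPase often used as a marker of interferon treatment, had a mean of 0.411 per kilobase in the same cells in which ISG15 had 1041.

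**Figure D2:**
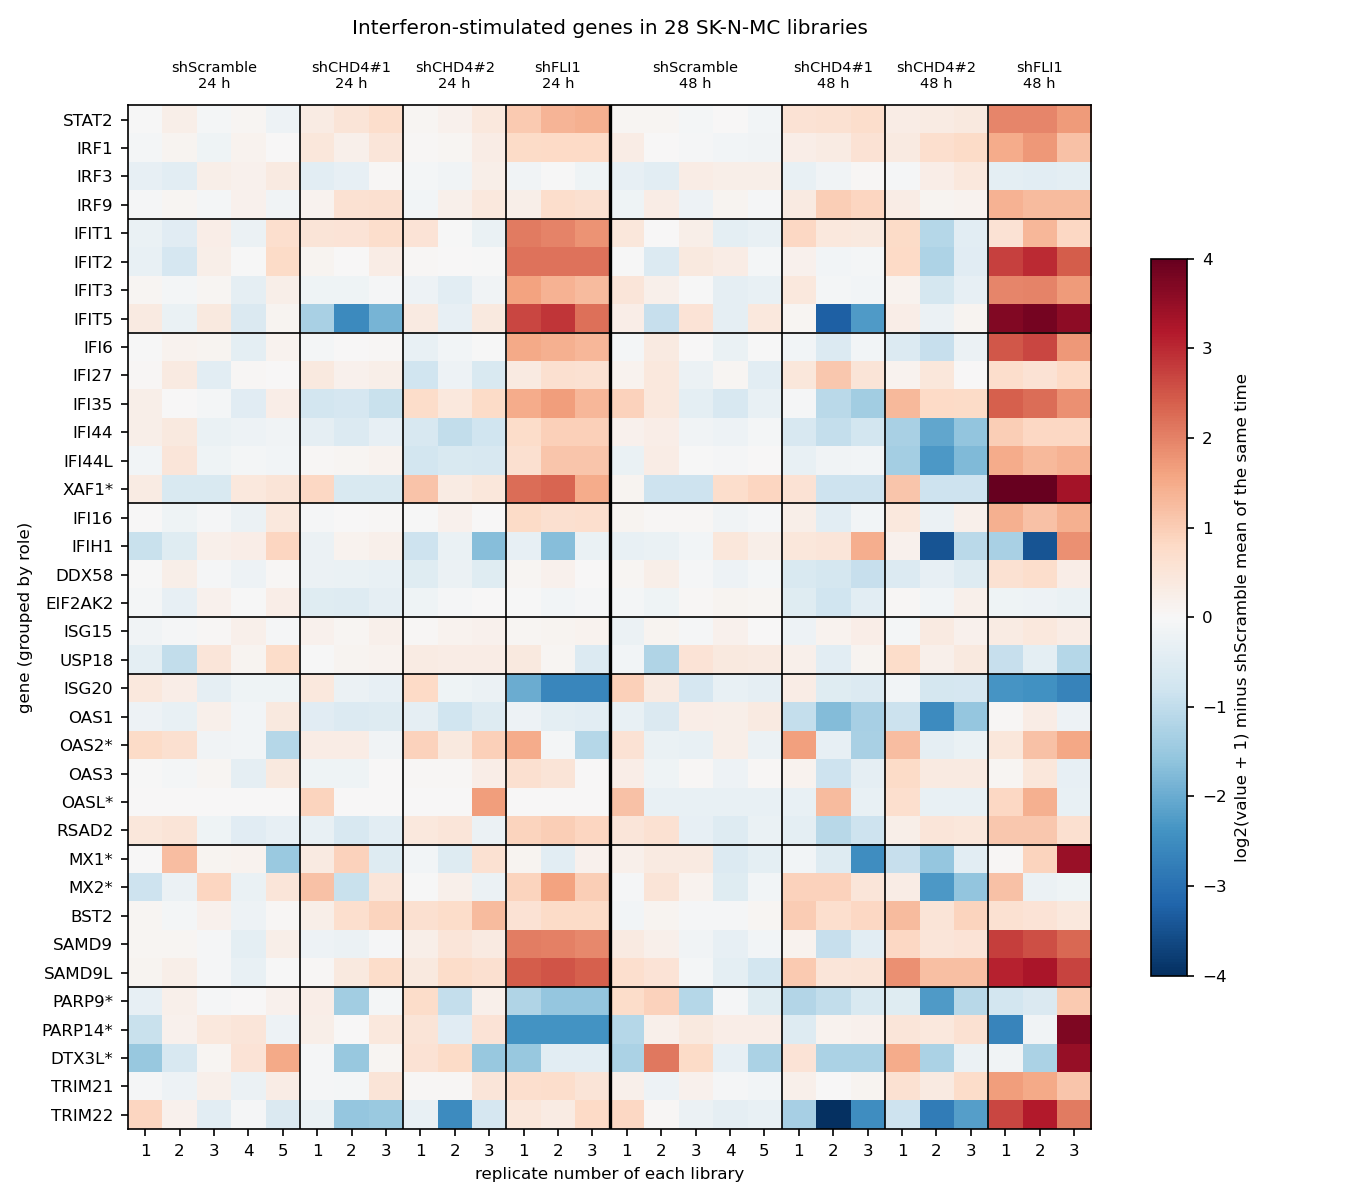
Each of the 36 members with a row (vertical axis, grouped by role) in each of the 28 libraries (horizontal axis, replicate number under its hairpin and time). Colour is log2(normalised count + 1) minus the shScramble mean of the same time, limited to 4 either way, and an asterisk marks the 8 members below the minimum for testing. Red blocks fill most rows of shFLI1 at both times, ISG20 is blue there, and MX1, PARP14 and DTX3L are darkest red in shFLI1 48 h replicate 3.

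Silencing EWS-FLI1 raised most of the set, and 21 of the 28 tested members were higher with shFLI1 at 48 h. At 24 h 18 were higher, where 24.2% of all 21025 tested genes were, and ISG20 alone was lower (22.5% of all genes). At 48 h 21 were higher, against 32.2% of all genes, and 2 (ISG20 and USP18) were lower, against 31.7%. The median log2 fold change of the 28 was 0.70 at 24 h and 1.13 at 48 h, beside 0.004 and 0.009 over all tested genes. All 18 members that were higher at 24 h were higher at 48 h too. Every shFLI1 library lay above all 5 shScramble libraries for 17 members at 24 h, where 23.7% of all tested genes did so, and for 21 at 48 h (31.5%). These counts and medians include IFIT5, which met the minimum mean of 10 only through the shFLI1 libraries. In bulk RNA a change in the share of cells that express a gene and a change in RNA per cell cannot be told apart.

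Without shFLI1 48 h replicate 3, 20 members were higher and 2 lower at 48 h, with a median of 1.19, where 29.5% and 29.4% of all genes were called. 21 of the 23 calls were shared: IFIT1 (limma adjusted p = 0.0594) and USP18 (0.156) lost their call, and IFIH1, a sensor of viral RNA, gained one (log2 −2.38, adjusted p = 0.0192). The IFIH1 call rests on 3 and 0 reads in shFLI1 replicates 1 and 2. Its mean over all 28 libraries, replicate 3 included, was 10, at the minimum for testing. Among second-kind libraries only, which removes the difference in library kind between shFLI1 and shScramble, 19 members were higher and 4 lower at 24 h, where 26.8% and 26.6% of all genes were. At 48 h 21 were higher and 4 lower, where 36.1% of all genes were called each way. Leaving out single libraries ended further calls. IRF9 at 24 h was not called without shFLI1 replicate 2 or 3 (adjusted p up to 0.108), and IFIT1 at 48 h without shScramble replicate 4 or 5 or shFLI1 replicate 2 or 3 (up to 0.139). ISG15 at 48 h was not called without shScramble replicate 1 or shFLI1 replicate 1 or 2 (up to 0.0912), nor USP18 without shScramble replicate 3, 4 or 5 or shFLI1 replicate 1 or 3. IFI27 at 24 h, at an adjusted p of 0.0482, lost its call with most libraries left out in turn (up to 0.148).

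**Figure D3:**
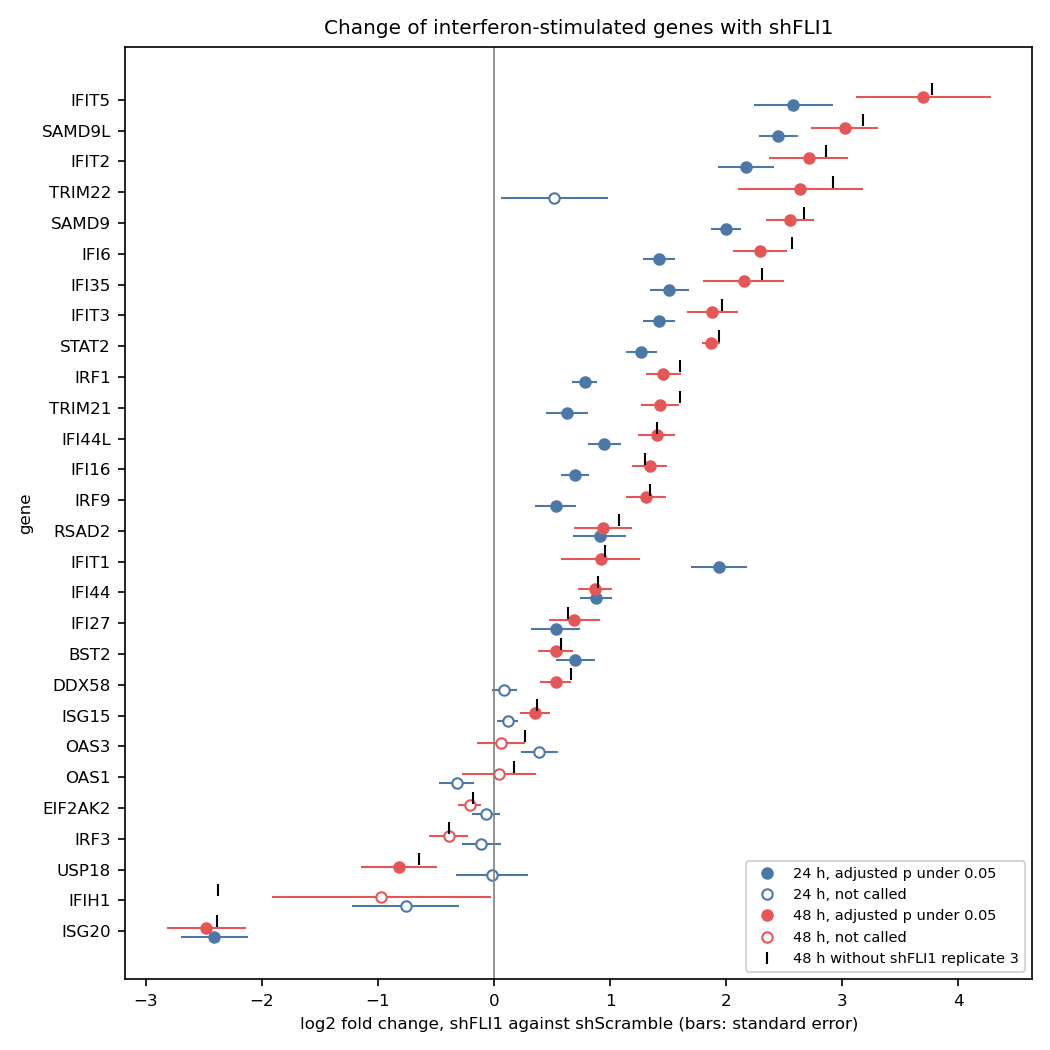
log2 fold change of the 28 tested members with shFLI1 against shScramble (horizontal axis, bars are limma's standard error), in order of the 48 h value; filled points passed an adjusted p of 0.05, open points did not, blue is 24 h, red is 48 h and a black tick is 48 h without shFLI1 replicate 3. Most points lie right of 0, from ISG15 at 0.35 to IFIT5 at 3.70 among those called higher at 48 h, ISG20 lies near −2.4 at both times, and the ticks lie close to the red points except for IFIH1.

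The transcription factors of the pathway rose together, IRF3 excepted. STAT2, the subunit that gives the interferon complex its activation domain, lies on chromosome 12 at 56341597 to 56360155 on the minus strand. At 24 h it read 1452, 1724, 1385, 1544 and 1269 normalised counts in shScramble and 3002, 3742 and 3924 with shFLI1. At 48 h it read 1753, 1739, 1573, 1680 and 1553 in shScramble and 6387, 6375 and 5416 with shFLI1. The groups were well apart at both times, and the log2 fold change was 1.27 (SE 0.13, limma adjusted p = 1.83e-06) and 1.87 (SE 0.08, adjusted p = 2.14e-10). IRF9, the DNA-binding partner of STAT2, rose by a log2 of 0.53 and 1.31. IRF1, a factor that also answers interferon gamma, rose by 0.78 and 1.46. IRF3, which sensors activate without new synthesis, was not called (log2 −0.11 and −0.39). Among second-kind libraries only it was lower at both times (log2 −0.36 and −0.65, adjusted p = 0.00881 and 1.99e-05).

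All 4 IFIT genes, which encode proteins that bind foreign RNA ends and block their translation, rose with shFLI1 at both times. They lie side by side on chromosome 10 between 89283694 and 89421001, in the order IFIT2, IFIT3, IFIT1, IFIT5. IFIT5 showed the largest rise of the 28 tested members, but it met the minimum mean of 10 only through the shFLI1 libraries. Its group means were 2.11 to 11.2 without shFLI1 and 26.7 over all libraries. It read 13, 8.10, 13.2, 6.33 and 10.8 normalised counts in shScramble and 68.2, 78.2 and 49.7 with shFLI1 at 24 h. At 48 h it read 10.7, 4.12, 13.2, 6.53 and 12 in shScramble and 125, 136 and 114 with shFLI1. No shFLI1 library came near the shScramble range, and the log2 fold change was 2.58 (SE 0.34, limma adjusted p = 2.51e-05) and 3.70 (SE 0.58, adjusted p = 5.65e-05).

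IFIT2 read 76.0, 59.2, 111, 93.8 and 160 in shScramble and 433, 431 and 427 with shFLI1 at 24 h, and 87.5, 59.8, 115, 108 and 82.9 against 593, 706 and 476 at 48 h. Its 24 h shFLI1 libraries were nearly equal, and its log2 fold change was 2.17 (limma adjusted p = 4.24e-06) and then 2.71 (7.93e-06). IFIT3 read 255, 228, 256, 188 and 285 in shScramble and 731, 633 and 579 with shFLI1 at 24 h, and 294, 241, 207, 164 and 173 against 823, 829 and 687 at 48 h. Its groups were apart at both times too (log2 1.42 and 1.88). IFIT1 sits between IFIT3 and IFIT5. It read 56.5, 49.4, 81.0, 56.9 and 108 in shScramble and 285, 268 and 237 with shFLI1 at 24 h, and 89.3, 66.0, 77.3, 49.5 and 53.4 against 99.2, 167 and 117 at 48 h. The shFLI1 libraries were high at 24 h and only just above the shScramble range at 48 h, with a log2 fold change of 1.94 and then 0.92. The change between the times did not pass the test (log2 −1.02, adjusted p = 0.113).

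SAMD9 and SAMD9L, neighbouring antiviral genes on chromosome 7 between 93099513 and 93148369, rose strongly. SAMD9L read 123, 135, 112, 92.8 and 114 in shScramble and 621, 661 and 611 with shFLI1 at 24 h, and 173, 159, 103, 83.1 and 65.4 against 925, 1068 and 721 at 48 h. No shFLI1 library came near the controls, and the log2 fold change was 2.45 (SE 0.17, limma adjusted p = 4.72e-08) and 3.02 (SE 0.29, adjusted p = 4.85e-07). SAMD9 read 472, 472, 432, 338 and 524 in shScramble and 1820, 1810 and 1688 with shFLI1 at 24 h, and 572, 518, 401, 358 and 412 against 3002, 2687 and 2206 at 48 h. Its groups were equally distinct (log2 2.00 and 2.55, adjusted p = 2.71e-08 and 9.18e-08). BST2, or tetherin, which ties budding virus to the cell surface, rose less, from 214 ± 22.1 (SD, n = 5) to 347 ± 25.6 (SD, n = 3) at 24 h and from 214 ± 13.6 to 310 ± 20.6 at 48 h (log2 0.70 and 0.53).

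All 5 tested genes of the IFI group rose with shFLI1 at both times. IFI6, a mitochondrial and endoplasmic reticulum protein that protects against flaviviruses, lies on chromosome 1 at 27666061 to 27672218 on the minus strand. It read 117, 132, 130, 90.7 and 132 in shScramble and 340, 322 and 303 with shFLI1 at 24 h, and 105, 143, 113, 91.5 and 109 against 631, 706 and 370 at 48 h. Replicate 3 was the lowest of the 48 h shFLI1 libraries and still above every control (log2 1.42 and 2.29, and 2.57 without replicate 3). IFI35 read 119, 101, 94.2, 73.8 and 122 in shScramble and 285, 324 and 255 with shFLI1 at 24 h, and 188, 133, 76.3, 63.5 and 80.7 against 530, 469 and 355 at 48 h. The first-kind controls were its highest at 48 h, and all shFLI1 libraries lay above them (log2 1.51 and 2.15, limma adjusted p = 6.94e-06 and 8.60e-05).

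IFI44L and IFI44, neighbours on chromosome 1 between 78619922 and 78664078, were already abundant in shScramble. IFI44L read 2933, 4410, 2792, 2966 and 2946 in shScramble and 4931, 6810 and 6757 with shFLI1 at 24 h, and 2535, 3738, 2964, 2914 and 3058 against 8529, 7482 and 7904 at 48 h. IFI44 read 3435, 3865, 2479, 2556 and 2660 against 4909, 5709 and 5740 at 24 h, and 3470, 3717, 2802, 2695 and 2944 against 6079, 5507 and 5458 at 48 h. Neither gene had a shFLI1 library within the control range, and the log2 fold changes were 0.95 and 1.40 for IFI44L and 0.88 and 0.87 for IFI44. IFI27, a mitochondrial membrane protein, rose by 0.53 and 0.69.

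The sensors of nucleic acid were divided. IFI16, a sensor of DNA, rose from 770 ± 143 (SD, n = 5) to 1236 ± 56.7 (SD, n = 3) at 24 h and from 715 ± 49.0 to 1810 ± 165 at 48 h (log2 0.70 and 1.34). DDX58, the gene of the RNA sensor RIG-I, read 347, 412, 341, 308 and 360 in shScramble and 374, 394 and 354 with shFLI1 at 24 h, where the groups overlapped (log2 0.09, limma adjusted p = 0.565). At 48 h it read 409, 460, 376, 336 and 371 against 595, 629 and 471, with no overlap (log2 0.53, adjusted p = 0.00299). IFIH1, the RNA sensor MDA5, was low and uneven: with shFLI1 at 48 h it read 3.54, 0 and 38.4, the last in replicate 3, against 8.04 to 14 in shScramble. EIF2AK2 was not called (log2 −0.07 and −0.21), and was lower at 48 h among second-kind libraries only (log2 −0.29, adjusted p = 0.00128).

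Enzymes that act on RNA or nucleotides did not move together. RSAD2, or viperin, which makes a chain-terminating nucleotide, read 276, 289, 177, 146 and 161 in shScramble and 376, 396 and 367 with shFLI1 at 24 h, and 323, 356, 183, 162 and 192 against 493, 488 and 363 at 48 h. The shFLI1 libraries were above all controls, though replicate 3 at 48 h only just (log2 0.91 and 0.94). ISG20, an RNA exonuclease, went the other way. It read 99.1, 87.5, 56.7, 65.4 and 65.0 in shScramble and 17.6, 11.2 and 11.1 with shFLI1 at 24 h, and 153, 101, 48.8, 62.5 and 60.0 against 14.2, 13.8 and 11.4 at 48 h. All 6 shFLI1 libraries were below every control, and the log2 fold change was −2.41 (SE 0.29, limma adjusted p = 9.55e-06) and −2.48 (SE 0.34, adjusted p = 1.55e-05). OAS1 and OAS3, oligoadenylate synthetases that turn on RNase L, were not called at either time (OAS1 −0.32 and 0.04, OAS3 0.39 and 0.06).

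ISG15 and USP18, the protease that removes ISG15 from its targets and restrains the receptor, moved apart at 48 h. ISG15 rose from 1025 ± 111 (SD, n = 5) to 1302 ± 58.7 (SD, n = 3), a log2 of 0.35 (limma adjusted p = 0.0259). USP18 read 368, 171, 577, 518 and 509 in shScramble and 208, 302 and 177 with shFLI1 at 48 h. The groups overlapped through shScramble replicate 2 (log2 −0.82, adjusted p = 0.0403), and among second-kind libraries only the value was −1.26 (0.000302). TRIM22, a ubiquitin ligase with antiviral activity, passed the test at 48 h and not at 24 h. It read 120, 74.5, 48.6, 63.3 and 43.3 in shScramble and 90, 81.5 and 114 with shFLI1 at 24 h. These overlapped through shScramble replicate 1, a first-kind library, and all other controls lay below every shFLI1 library. At 48 h TRIM22 read 146, 83.5, 69.2, 62.5 and 66.5 against 523, 733 and 349, with no overlap (log2 2.64, SE 0.54, adjusted p = 0.000629). The difference between the times was 2.12 (adjusted p = 0.0557). TRIM21, an antibody receptor and ubiquitin ligase, rose by 0.63 and 1.43.

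The rise with shFLI1 was larger at 48 h than at 24 h for 6 members by the test of the difference between the times, and smaller for 0, where 7.22% and 9.44% of all tested genes passed limma's test. The 6 were STAT2 (difference of log2 fold changes 0.60, limma adjusted p = 0.00581), IRF1 (0.68, 0.00967), IRF9 (0.79, 0.0215), TRIM21 (0.80, 0.0193), IFI6 (0.87, 0.0258) and IFI16 (0.64, 0.0284). 3 of the 6 are the transcription factors above. At an unadjusted p under 0.05 limma, edgeR and DESeq2 each had 1 member with a smaller change at 48 h (IFIT1 by limma). After adjustment each had 0. Without shFLI1 48 h replicate 3 the count was 6 again, with IFI16 lost (0.60, adjusted p = 0.0694) and DDX58 gained (0.57, 0.0247). Leaving out other single libraries moved it further: it was 2 without shFLI1 48 h replicate 1, 3 without replicate 2 and 3 without shFLI1 24 h replicate 3. Among second-kind libraries only 12 members rose further, where 12% of all genes did.

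**Figure D4:**
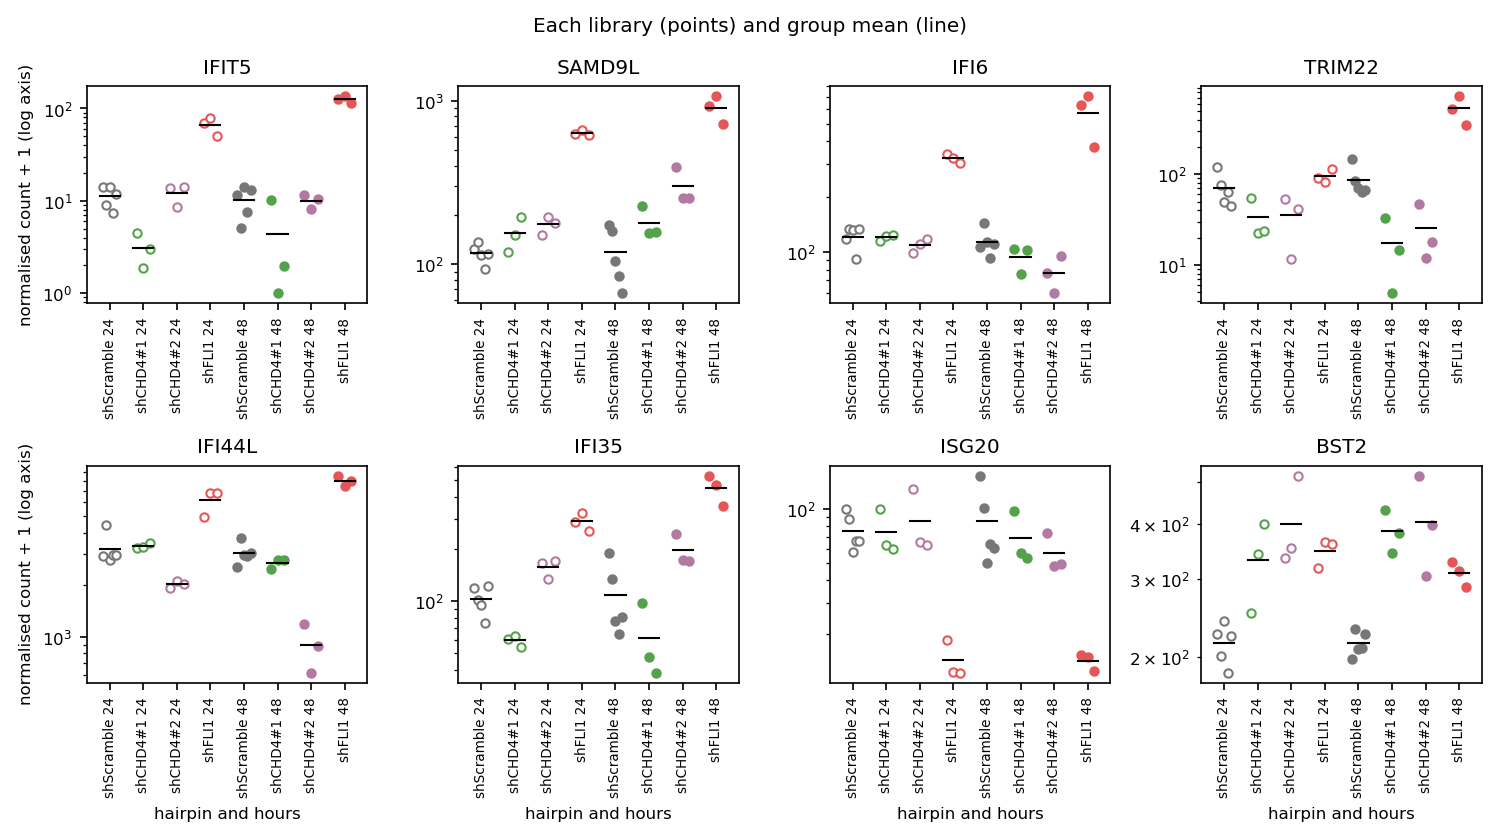
Normalised count + 1 (vertical axis, log scale) of 8 members in every library (points; open at 24 h, filled at 48 h) with the group mean (line), by hairpin and hours (horizontal axis). IFIT5, SAMD9L, IFI6 and IFI35 are highest with shFLI1 at both times, TRIM22 with shFLI1 at 48 h, ISG20 is lowest there, IFI44L is lowest with shCHD4#2 at 48 h, and BST2 is above shScramble with every knockdown.

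Silencing CHD4 moved fewer members, in both directions. With shCHD4#1 at 24 h 3 of 28 members were higher and 4 lower, where 5.21% and 6.14% of all genes were. With shCHD4#2 at 24 h 3 were higher and 4 lower, where 4.05% and 7.01% of all genes were. At 48 h shCHD4#1 gave 4 higher and 7 lower (12.9% and 15.5% of all genes) and shCHD4#2 7 higher and 5 lower (17.5% and 20.3%). The median log2 fold change of the members was −0.12 with shCHD4#1 and 0.14 with shCHD4#2 at 48 h. At 48 h these counts were close to the shares of all genes, and nothing particular to the set is read from them.

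The hairpins shared few calls. At 24 h both raised BST2 and lowered OAS1. At 48 h both raised BST2 and STAT2 and lowered OAS1, IFI44, TRIM22 and DDX58. Both hairpins are compared with the same shScramble libraries, so these overlaps are counts and carry no test.

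BST2 read 197, 231, 208, 209 and 225 normalised counts in shScramble at 48 h, 430, 343 and 381 with shCHD4#1 and 513, 304 and 398 with shCHD4#2. All 6 libraries lay above the controls (log2 0.84 and 0.89, limma adjusted p = 0.00087 and 0.000355). Within the first kind of library the values were 0.84 and 0.89, with adjusted p of 0.129 and 0.0827, and within the second kind 0.83 and 0.89 (0.00388 and 0.00165). OAS1 read 799, 650, 1177, 1138 and 1255 in shScramble at 48 h, 506, 292 and 391 with shCHD4#1 and 541, 168 and 329 with shCHD4#2. It was below every control with both hairpins (log2 −1.33 and −1.65), and its first-kind controls were the lower ones. Within the first kind its change was −0.91 and −1.25 (adjusted p = 0.344 and 0.153), and within the second −1.60 and −1.85 (0.000954 and 0.000222).

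IFI44 read 2010, 1600 and 1860 with shCHD4#1 at 48 h and 1251, 741 and 1039 with shCHD4#2, against the shScramble values given above, the lowest of which was 2695. The fall was a log2 of −0.77 with shCHD4#1 (limma adjusted p = 0.00181) and −1.65 with shCHD4#2 (2.91e-06), and the difference between the hairpins passed the test (0.88, adjusted p = 0.0012). TRIM22 read 31.6, 3.89 and 13.8 with shCHD4#1 at 48 h and 45.6, 10.8 and 16.8 with shCHD4#2, all below the lowest control of 62.5 (log2 −2.62 and −1.94, adjusted p = 0.00254 and 0.0116). DDX58 read 255, 240 and 205 and then 265, 309 and 272, all below the lowest control of 336 (log2 −0.74 and −0.46). With shCHD4#2, TRIM22 lost its call without shCHD4#2 replicate 2 (adjusted p = 0.082) and DDX58 without shCHD4#2 replicate 3 (0.0516). STAT2 read 2475, 2532 and 2690 with shCHD4#1 and 2032, 2075 and 2176 with shCHD4#2, above every control at 48 h (log2 0.63 and 0.34).

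**Figure D5:**
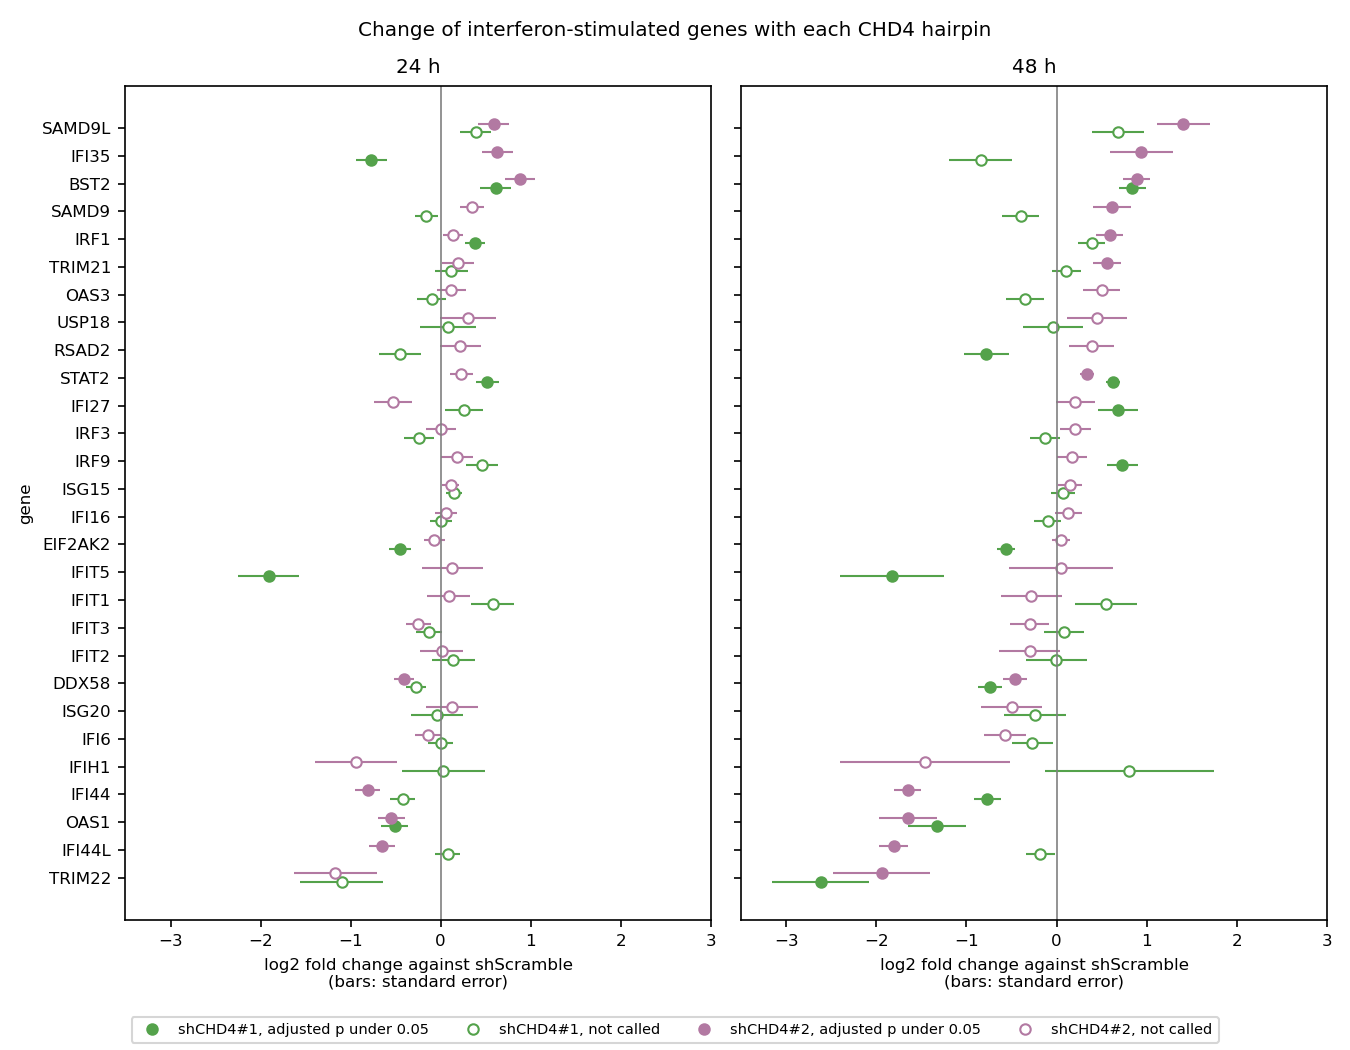
log2 fold change of the 28 tested members against shScramble with shCHD4#1 (green) and shCHD4#2 (purple) at 24 h (left panel) and 48 h (right panel), in the order of shCHD4#2 at 48 h; bars are limma's standard error, and filled points passed an adjusted p of 0.05. Filled points of both colours on 1 side of 0 at 48 h are BST2 and STAT2 on the right and TRIM22, OAS1, IFI44 and DDX58 on the left, while IFI35, IFIT5 and IFI44L show the hairpins apart.

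The hairpins to CHD4 differed from each other in 5 of 28 members at 24 h, where 9.62% of all genes did, and in 10 at 48 h, where 37.9% did, a share near that of the members. IFI44L was lower with shCHD4#2 alone. At 24 h it read 3260, 3305 and 3491 with shCHD4#1 and 1915, 2090 and 2022 with shCHD4#2, and at 48 h 2467, 2764 and 2785 against 1181, 615 and 880. The shCHD4#1 libraries overlapped the controls and the shCHD4#2 libraries lay below them, and the difference between hairpins was 0.74 and 1.63 on the log2 scale (limma adjusted p = 0.00971 and 2.76e-05). IFIT5 was lower with shCHD4#1 alone. It read 3.47, 0.864 and 1.99 with shCHD4#1 and 12.9, 7.62 and 13.2 with shCHD4#2 at 24 h, and 9.14, 0 and 0.988 against 10.5, 7.23 and 9.48 at 48 h. These rest on few reads, and at 48 h shCHD4#1 replicate 1 fell among the controls (difference between hairpins −2.03 and −1.87, adjusted p = 0.00414 and 0.0333).

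IFI35 went opposite ways with the hairpins. It read 59.8, 62.2 and 53.6 with shCHD4#1 and 166, 134 and 170 with shCHD4#2 at 24 h, and 96.3, 46.7 and 37.6 against 244, 172 and 171 at 48 h. At 24 h the controls lay between the hairpins with no overlap (log2 −0.77 and 0.63, limma adjusted p = 0.0104 and 0.0309). At 48 h both hairpins overlapped the controls, and the change was −0.84 with shCHD4#1, not called at an adjusted p of 0.0883, and 0.94 with shCHD4#2 (0.0457). The difference between the hairpins passed at both times (log2 −1.40 and −1.78, adjusted p = 0.00061 and 0.00282). RSAD2 read 174, 106 and 129 with shCHD4#1 and 269, 326 and 314 with shCHD4#2 at 48 h (difference −1.17, adjusted p = 0.00491). At 48 h the hairpins also differed in STAT2, IRF9, IFI44, OAS3, SAMD9 and EIF2AK2, and at 24 h in IFI27 and SAMD9.

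Which CHD4 calls were made depended on the handling of the libraries. In the fit with the replicate number as a block and without shFLI1, shCHD4#1 at 24 h gave 4 higher and 8 lower, where 10% and 13.1% of all genes were called. shCHD4#2 at 48 h gave 8 higher and 8 lower (19.5% and 21.8% of all genes). The hairpins then differed in 8 members at 24 h, where 13.7% of all genes were higher and 13.3% lower with shCHD4#1. That fit added TRIM22 as lower with both hairpins at 24 h (log2 −1.32 and −1.38, limma adjusted p = 0.0298 and 0.0234), and DDX58 and IFI44 with shCHD4#1 at 24 h (0.0454 and 0.0209). It removed SAMD9L with shCHD4#2 at 24 h (0.0576), IFI27 with shCHD4#1 at 48 h (0.0616) and SAMD9 with shCHD4#2 at 48 h (0.0597). Among first-kind libraries only, with 2 libraries a group, the calls at 48 h fell to 1 higher and 1 lower with shCHD4#1 (2.87% and 2.91% of all genes). With shCHD4#2 they were 0 higher and 2 lower by limma (6.51% and 7.63% of all genes), and 4 were higher at an unadjusted p under 0.05. The 2 lower with shCHD4#2 were IFI44 (−1.90, adjusted p = 0.0132) and IFI44L (−1.85, 0.0207). Among second-kind libraries only, with 1 library of each CHD4 hairpin assumed to vary like the other groups, they were 5 and 7 with shCHD4#1 (11.3% and 15.2% of all genes) and 8 and 4 with shCHD4#2 (16.2% and 18.8%). The 24 h calls of IFI35 and IFIT5 with shCHD4#1 and of BST2, IFI44 and IFI44L with shCHD4#2 held with each library left out in turn. The other 24 h calls were each lost without at least 1 library, such as BST2 with shCHD4#1 without shCHD4#1 replicate 3 (adjusted p = 0.152) and OAS1 with shCHD4#2 without shCHD4#2 replicate 2 (0.182). Of the 48 h calls, IFI27, IFIT5 and RSAD2 with shCHD4#1 (adjusted p up to 0.195, 0.189 and 0.155) and IFI35, SAMD9 and TRIM21 with shCHD4#2 (up to 0.146, 0.101 and 0.062) were lost without at least 1 library.

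Set directly against both CHD4 hairpins, shFLI1 had 18 members higher and 1 lower at 24 h, where 28% and 24.8% of all genes were called. At 48 h 18 were higher and 3 lower, against 32.9% and 32.8%. The widest gap at 48 h was in TRIM22, which was higher with shFLI1 and lower with both CHD4 hairpins (log2 4.92, limma adjusted p = 1.32e-06), followed by IFIT5 (4.59), IFIT2 (2.86) and IFI6 (2.71). BST2, raised by every knockdown, did not differ beyond the test (log2 −0.04 at 24 h and −0.33 at 48 h, adjusted p = 0.835 and 0.0535). ISG20, USP18 and IRF3 were the 3 lower at 48 h. Without shFLI1 48 h replicate 3 the counts were 18 and 2 (30.7% and 30.5% of all genes).

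The 8 members below the minimum held from 11 reads (OASL) to 253 reads (PARP9) over all libraries. XAF1, an antagonist of the apoptosis inhibitor XIAP, alone passed as higher with shFLI1 in a fit with no minimum. It read 0.927, 0, 0, 1.05 and 1.20 normalised counts in shScramble and 6.20, 6.70 and 3.32 with shFLI1 at 24 h, and 0.893, 0, 0, 1.87 and 2.18 against 35.4, 60.9 and 16.6 at 48 h. These are 15 reads against 3 at 24 h (ratio 9.18, 95% interval 2.60 to 49.5) and 99 against 5 at 48 h (37.4, 15.5 to 118), with intervals that cover counting error only. All shFLI1 libraries lay above all controls, and in a fit with no minimum the log2 fold change was 2.01 (limma adjusted p = 0.0026) and 4.27 (2.55e-05), and 4.75 (8.66e-05) at 48 h without shFLI1 replicate 3. PARP14, a mono-ADP-ribosyltransferase, had 0 reads in the 24 h shFLI1 libraries and 23 in the 24 h shScramble libraries, at least 4.18-fold lower against a floor of 3 reads over the group. The fit with no minimum called PARP14 lower there (log2 −2.39, limma adjusted p = 0.000161).

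PARP9, which pairs with DTX3L in an ADP-ribosylating ubiquitin ligase, had 7 reads against 43 (ratio 0.299, 95% interval 0.113 to 0.67) at 24 h with shFLI1. It was also called lower there with no minimum (log2 −1.43, limma adjusted p = 0.0193). PARP9, DTX3L and PARP14 lie together on chromosome 3 between 122527924 and 122730840. At 48 h these 3 genes and MX1 were high in shFLI1 replicate 3, the library that stands apart: it held 60.2 normalised counts of MX1, 81.0 of PARP14, 26.0 of DTX3L and 27.0 of PARP9. The other shFLI1 libraries held 4.72 and 9.20 of MX1, 0 and 4.60 of PARP14, 1.18 and 0 of DTX3L and 7.09 and 8.05 of PARP9, within or near the shScramble range. In that library 22 of the 28 tested members were the lowest of the 3 shFLI1 libraries, as were 45.6% of all tested genes. IFI27, IFI16 and IFIH1 were highest in it, like these 4 genes. MX2, OAS2 and OASL stayed at 20.1 normalised counts or less in every library.

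Genes of the pathway that are not members were counted from further lists. At 48 h with shFLI1 32.2% of all tested genes were higher and 31.7% lower, and the lists of receptors, sensors and regulators lay near those shares, so nothing particular to them is read from their counts. Of 9 interferon receptors and Janus kinases, all tested, 2 were higher and 3 lower with shFLI1 at 24 h (24.2% and 22.5% of all genes). At 48 h 3 were higher and 3 lower. JAK1, the kinase shared by the receptors, fell by 1.21 on the log2 scale at 48 h (limma adjusted p = 1.79e-08) and JAK2 by 0.77, while IFNAR1 rose by 0.64. Of 13 genes of nucleic acid sensing and its adaptors 9 were tested, with 4 higher and 3 lower at 48 h. STING1, the adaptor of DNA sensing, rose by 2.50 (adjusted p = 2.5e-07), and the signalling ligases TRAF3 and TRIM25 fell by 1.23 and 1.52. Of 9 negative regulators 3 were higher and 4 lower at 48 h. SOCS1, an inhibitor of the Janus kinases, rose from 6.07 ± 1.57 (SD, n = 5) to 324 ± 96.8 (SD, n = 3), a log2 of 5.51 (adjusted p = 1.12e-08). That shScramble mean lay below the minimum mean for testing, which is taken over all libraries, those with shFLI1 included. The test of SOCS1 therefore depended on libraries in which it was higher, and the count of 3 higher regulators includes it. IRF2, a repressor at response elements, rose by 1.57, and the phosphatase PTPN11 fell by 0.91.

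A further list of 36 interferon-stimulated genes, of which 33 were tested, had 20 higher and 3 lower with shFLI1 at 24 h and 23 higher and 1 lower at 48 h, beside 24.2% and 22.5% of all genes at 24 h and the 48 h shares above. UBA7, the enzyme that activates ISG15, rose from 129 ± 23.4 (SD, n = 5) to 1895 ± 359 (SD, n = 3) at 48 h, a log2 of 3.86 (limma adjusted p = 2.97e-09). PARP10 rose by 2.61 and PNPT1, a mitochondrial RNA exonuclease, fell by 2.22. With the CHD4 hairpins at 48 h the same list had 5 higher and 5 lower with shCHD4#1 (12.9% and 15.5% of all genes) and 7 higher and 4 lower with shCHD4#2 (17.5% and 20.3%), near the shares of all genes. Of the interferon genes listed (type I, II and III), IFNE alone had a row.

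Markers of leukocytes, which would bring interferon-stimulated RNA of their own, were looked at beside these changes. The summed normalised counts of 8 such markers were 226 to 359 in shScramble and 419 to 433 with shFLI1 at 24 h, and 273 to 327 and 208 to 302 at 48 h. All 8 were found, and PTPRC was 28.7 to 53.8 in shScramble and 276 to 333 with shFLI1 at 24 h, and 40.1 to 48.4 and 124 to 220 at 48 h. CD79A, a B cell marker, went the other way, from 128 to 207 in shScramble to 4.6 to 9.45 with shFLI1 at 48 h. ITGAM was also lower, at 6.07 to 20.3 in shScramble and 2.07 to 3.35 with shFLI1 at 24 h, and 11.2 to 21.6 and 4.72 to 6.9 at 48 h. CD68 (44.5 to 68.1 and 47.5 to 68.2, then 55.6 to 75 and 59.1 to 76.8) overlapped shScramble at both times. So did CD14 (3.61 to 13 and 0 to 6.7, then 1.03 to 6.25 and 1.04 to 7.09). CD3E, the T cell marker, was at 0 in the 24 h shFLI1 libraries and at most 1.04 in those of 48 h. LYZ was at 0 and then at most 2.36, and HLA-DRA at most 1.12 and then 8.31, where no other group passed 1.2. Summed counts of 4 fibroblast markers were 1498 to 3054 in shScramble and 6602 to 9479 with shFLI1 at 48 h, and PDGFRB made up most of the latter at 6229 to 8948. DCN and LUM also rose, from 0 to 8.25 and 1.02 to 16.5 in shScramble to 22.8 to 56.7 and 41.5 to 128. COL1A1 alone on the list fell, from 757 to 1711 in shScramble to 308 to 493 with shFLI1. At 24 h the fibroblast sum was 1309 to 2341 in shScramble and 3798 to 3962 with shFLI1. The part of cells with any of these markers in the result was not tested, nor was that of the higher share of mitochondrial ribosomal RNA.

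In the authors' deposited tables of comparisons, fewer members passed. In the authors' deposited table of shFLI1 against shScramble at 48 h, where 20.9% of genes were called, 16 of 35 members with an adjusted p were higher and 1 lower. SAMD9L (log2 2.64), SAMD9 (2.29) and STAT2 (1.76) were among the higher in the authors' deposited table, with ISG20 (−2.41) lower. The authors' deposited table also called XAF1 (6.60), MX1 (2.62) and PARP14 (3.39). MX1 and PARP14 were high in shFLI1 replicate 3 alone. Without that library the limma fit with no minimum gave log2 0.46 for MX1 and −1.39 for PARP14 (adjusted p = 0.577 and 0.0819). In the authors' deposited tables for CHD4 at 24 h no member was called with shCHD4#1 (0.671% of genes called) or shCHD4#2 (0.527%). In the authors' deposited tables for 48 h TRIM22 was lower with shCHD4#1 (log2 −2.26, 3.24% of genes called), and IFI44L (−1.79), IFI44 (−1.71) and OAS1 (−1.27) were lower with shCHD4#2 (5.81%). In the authors' deposited tables the unadjusted p was exactly 1 for 36.9 to 68.8% of genes. What was tested there is not given, so their counts are not directly comparable with those above. Nor are all their fold changes: TRIM22 with shCHD4#1 at 24 h had log2 −0.21 in the authors' deposited table. Its mean normalised counts were 70 in shScramble and 32.7 with that hairpin.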

How the data were processed

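Total RNA was isolated on columns with DNase treatment, and stranded total RNA libraries were sequenced in paired ends on a HiSeq2000, per the labels' protocols. The submitters' processing notes name FastQC 0.11.7, HISAT2 2.1.0, the genome build GRCh38, SAMtools 1.7, featureCounts 1.6.0 and, last, DESeq2 1.34.0. How these were set, which annotation was counted and whether strand was used is not given in the sources used here. Counts of overlapping or antisense genes (such as BST2 and its neighbour BISPR) and of near-identical family members are therefore uncertain. The deposited values are a signal: reads per gene divided by a size factor of each library, called normalised counts here. The comparison tables of the authors hold log2 fold changes with their p-value before and after adjustment. Of these, the table named for shFLI1 at 24 h was left out, since FLI1 was near 0 in it, against the deposited values of those libraries.

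Whole reads were recovered: 99.971% of values were whole multiples of what 1 read is worth, within a tolerance of 0.02. The test was the trend fit of limma 3.58.1, run under R 4.3.3, of log2(value + 1), a scale that understates changes of low genes. Genes needed a mean of at least 10, and the 4 groups of a time went into 1 fit, without the other time. P values were two-sided, adjusted by the Benjamini-Hochberg method over all 21025 genes tested, and called at 0.05; they measure the spread between libraries. The difference between the times was fitted over all 28 libraries. With edgeR 4.0.16 on the recovered reads, 5045 genes were higher and 4902 lower with shFLI1 at 24 h, and 6919 and 6607 at 48 h. DESeq2 1.42.0, other pseudocounts and scalings, no minimum, single libraries left out, library kind and a replicate block were further alternatives. The scripts were tested on simulated data.

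Libraries of shScramble and the CHD4 hairpins with the same number deviated together (correlations 0.119 to 0.708 in 18 pairs). Library kind goes with the number in these groups, and pairs of different numbers were not compared. Pairing by number therefore cannot be told apart from library kind. Pairs with shFLI1, whose libraries are all of the second kind, gave −0.15 to 0.103. The members and lists were chosen with earlier results of these data known. Values in every library are given for the 12 members with the largest called fold change and for members with opposite calls in a pair of comparisons. BST2, OAS1, USP18 and XAF1 were added after their values were seen. Of each other list the 3 genes with the smallest adjusted p with shFLI1 at 48 h are named. Positions are from GENCODE 29 and promoters from RefSeq.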

Additional observations from a re-analysis of the deposited data

Results flagged for a closer look

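IFI44L in shScramble 24 h replicate 2 read 4410 normalised counts, apart from the other 4 libraries of its group. OASL and PARP14 each had a library apart in shScramble 48 h, replicate 1 in both, at 1.79 normalised counts, which are 2 reads. For OASL that library was the high one, with 0 in the others. For PARP14 it was the low one, with 6.18 to 7.12 in the others. 72 groups of 5 shScramble libraries were looked at, and chance flags about 1 in 20 groups.

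The shFLI1 fold change differed between 48 and 24 h, by the test of the difference itself, for STAT2 (log2 difference 0.60), IRF1 (0.68), IRF9 (0.79), IFI6 (0.87), IFI16 (0.64) and TRIM21 (0.80), all larger at 48 h. Without shFLI1 48 h replicate 3, IFI16 did not pass (0.60, limma adjusted p = 0.0694).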

How the results depend on the processing

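The number of members higher with shFLI1 stayed within 1.5 times the main count at both times, against shScramble and against both CHD4 hairpins, under every alternative run; the small counts moved. Members lower with shFLI1 (1 at 24 h, 2 at 48 h) numbered 3 at 24 h with no minimum, 2 and 4 with median centring, 4 and 4 in second-kind libraries only and 3 and 4 with library kind as a term. At 48 h 1 was lower with only the groups compared, 1 with the replicate block and 5 in second-kind libraries without shFLI1 replicate 3. Against both CHD4 hairpins 3 were lower at 24 h with no minimum and 2 with the kind term, and 5 at 48 h in second-kind libraries without replicate 3. The fit of only the groups compared gave 1 higher and 2 lower with each CHD4 hairpin at 24 h, and 3 differing between them. Second-kind libraries only gave 0 lower with shCHD4#1, 1 higher and 1 lower with shCHD4#2 and 0 differing at 24 h, where limma had 5 lower with shCHD4#1 and 7 differing at an unadjusted p under 0.05. The kind term gave 7 lower with shCHD4#1 and 8 differing at 24 h, and quantile normalisation gave 1 higher with shCHD4#2. First-kind libraries only, an alternative chosen after seeing the data, gave 0 higher and 2 lower with shCHD4#1 and 2 lower with shCHD4#2 at 24 h, and at 48 h 1 and 1, 0 and 2, and 4 differing. Of its counts of 0, limma had 5 higher with shCHD4#1 at 24 h and 4 with shCHD4#2 at 48 h at an unadjusted p under 0.05. The replicate block without shFLI1 was also chosen after seeing the data, and whether the numbers pair those libraries is not known. It gave 8 lower with shCHD4#1 and 8 differing at 24 h, and 8 lower with shCHD4#2 at 48 h. Members rising further by 48 h numbered 12 in second-kind libraries and 13 without replicate 3 as well, and 1 rose less with quantile normalisation and 1 with the block. Leaving out each library in turn gave, at 24 h, 1 to 2 lower with shFLI1, 0 to 3 higher and 2 to 4 lower with shCHD4#1, 1 to 3 higher and 2 to 4 lower with shCHD4#2, and 3 to 6 differing between them. At 48 h it gave 1 to 4 lower with shFLI1, 4 to 8 higher with shCHD4#2, 2 to 7 rising further and 0 to 1 rising less. IRF3 changed sign against both CHD4 hairpins at 24 h with the kind term (log2 −0.32, limma adjusted p = 0.00674). With median centring the median of all genes was −0.107 with shFLI1 at 48 h and −0.133 against both CHD4 hairpins, beside 0.009 and −0.001 in the main fit. The cause of these changes was not tested. Members with few reads (IFIH1, IFIT5 and the 8 below the minimum) are limited by depth.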
